A study of Mus musculus with 8 samples.

Results

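The mitotic spindle, kinetochore and cytokinesis genes described here are 58 genes picked by name from 23753 genes in a table of testis expression. For each, the transcript with the highest average of the 2 group means stood for the gene. RNA was sequenced from whole testes of mice on the 129/SVJ background at postnatal day 5, in 4 wild-type samples and 4 labelled Dio3KO. The Dio3 gene makes an enzyme, type 3 deiodinase, that breaks down active thyroid hormone, and the series is titled as a search for hormone-regulated genes in the newborn testis. How Dio3 was altered is not described in the labels, and neither is which mice shared a litter. The authors deposited a mean in RPKM (reads scaled to transcript length and to library size) and a coefficient of variation (CV) for each group, together with an adjusted p. Every level below is such a mean, values of single samples were not used, and the read depth is unknown. "Fell" and "rose" are written only where the authors' deposited table gives an adjusted p under 0.05. The test behind this p is not given in the sources used here, and it can take in no variation beyond that between these samples.

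Mitosis is run by a set of proteins that many cell types make in bursts, late in the cell cycle. Aurora and Polo-like kinases start and time the process, kinetochores tie each chromosome to spindle microtubules, and a checkpoint holds the anaphase-promoting complex (APC/C) back until all chromosomes are attached. Kinesin motors and bundling proteins then part the chromosomes and build the midzone at which the cell divides. In the neonatal mouse testis, Sertoli cells multiply only until they mature, and thyroid hormone is known to shorten that period. Spermatogonia and interstitial cells also divide at this age.

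Dio3 itself was listed at 0.52 (wild type) and 2.95 RPKM (Dio3KO-labelled), so it was higher in the group labelled as its knockout (the authors' deposited table gives p 0.0408 after adjustment). Dio3os, transcribed opposite Dio3, was listed at 0.22 and 3.9 RPKM, and it is not stated whether reads were counted by strand. The level of Dio3 goes against a simple reading of the label, and every direction below rests on the group name. The extraction text names hypothalami, while the tissue label is testis. Testis markers were high, such as Amh of Sertoli cells (284 and 127 RPKM in wild type and Dio3KO-labelled) and Ddx4 of germ cells (34.3 and 28.98 RPKM), whereas the hypothalamic gene Pomc was at 0.95 and 0.93 RPKM. Tested were the 15218 genes that reached a group mean of 1 RPKM, of which 2420 fell (15.9%) and 2126 rose (14.0%). The median log2 ratio of all these genes was -0.05. With a test of the means that pools the spread across genes (limma), 3527 were lower and 2836 higher, while centring on the median turned this split to 2559 lower and 3517 higher and division by summed RPKM to 1865 and 4374.

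Promoters are shown first, because the members moved together and because many late cell cycle genes are known to carry a pair of short elements near their start. One is the cell cycle genes homology region (CHR), bound by the complex called DREAM or MuvB, and the other is the CCAAT box, bound by NF-Y. The sequences are from RefSeq (GRCm38.p6, the assembly of mm10), each the 150 bases before the annotated start, 5′ to 3′ on the gene's strand. Where several starts are annotated, as for Bub3, the most upstream was used. Another annotation, GENCODE M21, starts Ube2c, Kif22, Cdc20 and Bub3 inside the stretch shown. Capitals mark a CHR (TTTGAA or TTCGAA) or a CCAAT box on either strand, and matches were counted also where they overlap. Ube2c and Kif22 had the largest falls of all members, Cdc20 and Top2a are well-known mitotic genes with falls near the middle, and Bub3 and Plk4 had the smallest falls by the transcript that stood for each gene. Plk4 holds that place only by this transcript, its log2 ratio of -0.27 being -0.56 over its summed transcripts, and Bub3 was smallest otherwise (-0.34). The genes shown were chosen after their values were seen.
Ube2c, chr2:164769779-164769928, plus strand: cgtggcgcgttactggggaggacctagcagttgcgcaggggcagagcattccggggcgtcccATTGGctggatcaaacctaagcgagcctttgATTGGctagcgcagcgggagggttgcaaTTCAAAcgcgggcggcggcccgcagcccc
Kif22, chr7:127042421-127042570, minus strand: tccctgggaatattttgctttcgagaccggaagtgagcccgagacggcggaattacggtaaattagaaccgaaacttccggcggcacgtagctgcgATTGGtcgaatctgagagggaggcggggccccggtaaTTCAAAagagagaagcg
Cdc20, chr4:118437344-118437493, minus strand: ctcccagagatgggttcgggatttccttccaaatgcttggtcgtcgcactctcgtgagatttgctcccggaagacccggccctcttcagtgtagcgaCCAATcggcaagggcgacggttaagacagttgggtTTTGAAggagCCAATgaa
Top2a, chr11:99024190-99024339, minus strand: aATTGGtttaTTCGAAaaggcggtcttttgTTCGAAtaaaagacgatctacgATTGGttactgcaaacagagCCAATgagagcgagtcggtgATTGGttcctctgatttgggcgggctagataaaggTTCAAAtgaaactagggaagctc
Bub3, chr7:131560220-131560369, plus strand: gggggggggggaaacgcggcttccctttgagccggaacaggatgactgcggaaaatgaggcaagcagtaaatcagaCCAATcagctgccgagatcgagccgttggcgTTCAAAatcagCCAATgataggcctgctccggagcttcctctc
Plk4, chr3:40799801-40799950, plus strand: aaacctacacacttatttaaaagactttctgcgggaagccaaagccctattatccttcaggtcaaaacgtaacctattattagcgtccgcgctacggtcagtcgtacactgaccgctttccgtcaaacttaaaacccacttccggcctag

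The CHR was common among the members. Promoter windows of 300 bases (250 before and 50 after the start) were matched for 50 of the 58 members, and 33 of these (66.0%) held TTTGAA or TTCGAA on either strand. Aurkb, Incenp, Spc24, Kif20a, Tpx2, Smc4, Haus1 and Foxm1 were not matched. Among all 10685 tested genes with a window, 16.5% held it, at a median GC content of 60.7% against 58.8% in the members. The CCAAT box was present in 37 of 50 members (74.0%), against 43.6% of all tested genes, and 29 members (58%) held both elements, against 7.23%. The E2F sites TTTGGCGC, TTTCCCGC or TTTCGCGC were found in 5 members (10%) and in 4.16% of all tested genes. Of 70 matched genes of a wider mitotic list, described further on, 30 (42.9%) held a CHR and 25.7% both elements, shares between those of the members and of all tested genes. Of 36 matched genes of the DNA replication machinery, 7 (19.4%) held a CHR and 14 (38.9%) an E2F site, or 9 (25%) without the bases after the start. In 13 members (26%), among them the 5 shown above that hold a CHR, the closest CCAAT box before a CHR started 25 to 45 bases ahead of it. This spacing, a range set after the data were seen, was found in 1.02% of all tested genes and in 4.29% of the wider mitotic genes. Within the members, those with a CHR had a median log2 ratio of -0.71 (33 genes, from -1.13 to -0.34) and those without one a median of -0.60 (17 genes, from -0.84 to -0.27), so the ranges overlapped widely. Birc5 had neither element in its window and a log2 ratio of -0.84. When the window was limited to the 250 bases before the start, 19 members (38.0%) and 14.8% of all tested genes held a CHR, and 17 members (34.0%) and 6.06% of all tested genes held both elements, the other members with a CHR having theirs at or after the start. A match of letters is not a measured binding site, and RNA levels alone were measured here.

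**Figure D1:**
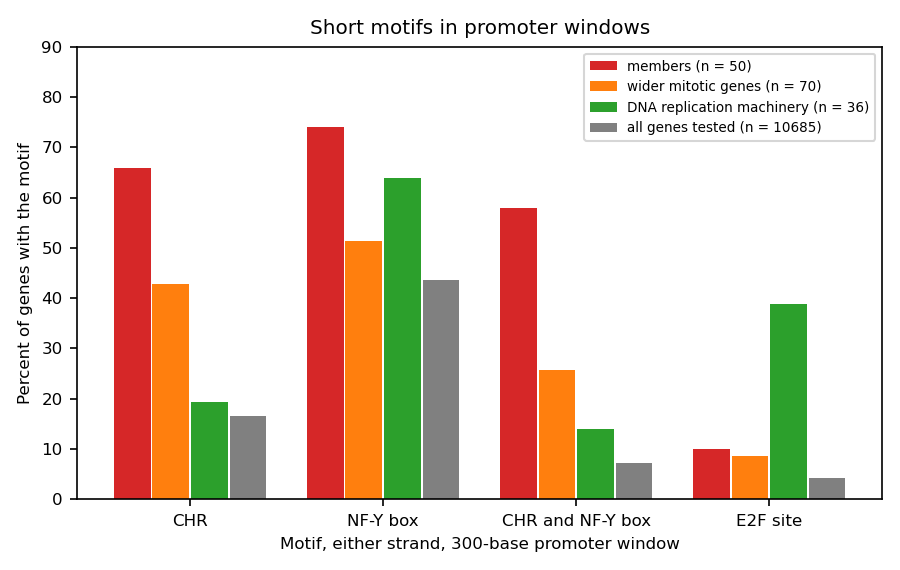
Bars give the percent of genes whose 300-base promoter window holds each motif (CHR; the NF-Y or CCAAT box; both; an E2F site), for the members, other mitotic genes, DNA replication genes and all tested genes, with the number of genes with a window in the key. The CHR stands at 66.0% in the members and 16.5% in all tested genes, and the E2F site at 38.9% in the replication genes.

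Of the 58 members, 57 fell in the Dio3KO-labelled testes and 0 rose, against 15.9% of all tested genes that fell. Haus1 was the member that did not pass. All 58 had a mean above 1 RPKM and were tested. The members were chosen with earlier results of these data known. At the stricter threshold of 0.01, 45 members were lower and 0 higher, against 4.94% and 4.3% of all tested genes. Their levels ranged from 3.6 RPKM (Kif14) to 119 RPKM (Top2a) in wild type and from 2.38 to 71.4 RPKM in the Dio3KO-labelled group. As a share of its wild-type mean, the level of a member was at least 45.4%, at the median 62.8% and at most 82.6% (Plk4, by the transcript that stood for it). The median log2 ratio was -0.65, beside -0.05 for all tested genes, and 37 members were at least 1.5-fold lower on the log2(RPKM + 0.5) scale, as were 3.68% of all tested genes. The limma test called all 58 lower, with adjusted p values from 3.32e-06 to 0.0053, against 23.2% of all genes tested. Whole testis was measured, so fewer dividing cells and less RNA per dividing cell cannot be told apart.

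The CVs also limit where single samples can lie. In a group of 4, no sample can be farther than 1.5 SD from the mean. With the rounding of the CVs allowed for, the groups cannot overlap for 56 members, every wild-type sample being above every Dio3KO-labelled one. Over all tested genes, 12.8% were separated in that direction by the same rule. For Ube2c no wild-type sample can be under 60.8 RPKM and no Dio3KO-labelled sample above 35.7 RPKM. The gap was narrow for Spc24, with limits of 55.8 and 53.5 RPKM. Haus1 and Haus8 were the members for which an overlap is possible (for Haus1, 22.8 and 24.3 RPKM).

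**Figure D2:**
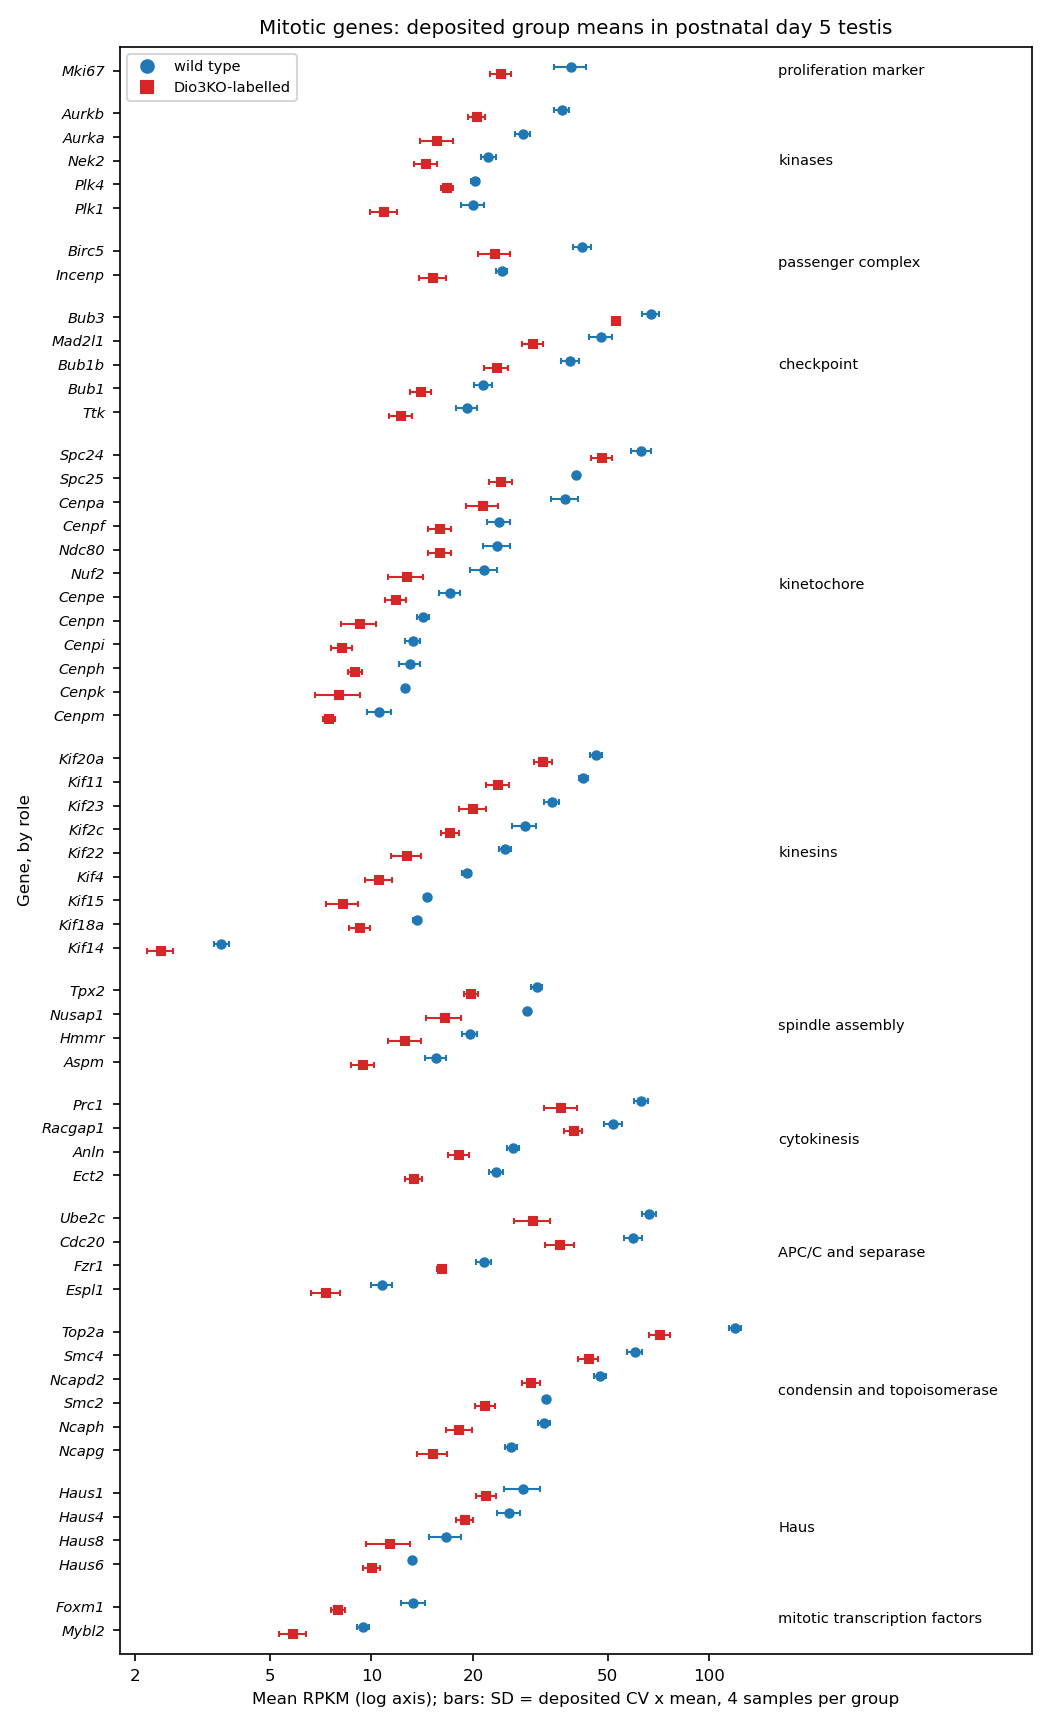
Each row is a member, grouped by role, with its mean RPKM on a log axis in wild type (blue circles) and Dio3KO-labelled testes (red squares), and bars of the deposited CV times the mean. The red square lies left of the blue circle in all 58 rows, from Kif14 at 3.6 and 2.38 RPKM to Top2a at 119 and 71.4 RPKM.

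Mki67, the nuclear protein used as a stain for cycling cells, fell from 38.95 to 24.2 RPKM (CVs of 0.11 and 0.07), a log2 ratio of -0.68 ± 0.09, the SE here and below being computed from the CVs (authors' deposited table, adjusted p 0.0185).

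All 5 mitotic kinases fell, with a median log2 ratio of -0.82. Aurkb, the kinase of the chromosomal passenger complex that corrects faulty attachments, fell from 36.5 to 20.5 RPKM (CVs of 0.05 and 0.06), a log2 ratio of -0.82 ± 0.06 (authors' deposited table, adjusted p 0.0027). Aurka, which acts at the spindle poles, fell from 28.1 to 15.7 RPKM. Plk1, a kinase of mitotic entry and of spindle assembly, fell from 19.95 to 10.9 RPKM. These 3 kinases were each at 54.6% to 56.1% of their wild-type level. Nek2, a kinase of centrosome separation, fell less far, from 22.2 to 14.5 RPKM. Plk4, the master kinase of centriole duplication, which takes place before mitosis, fell from 20.3 to 16.7 RPKM (CVs of 0.03 and 0.04; authors' deposited table, adjusted p 0.007). Its log2 ratio of -0.27 ± 0.04 was the smallest of all 58 members, but this rests on 1 of its 5 transcripts. The ratio was -0.62 for the transcript with the smallest deposited p and -0.56 over the summed transcripts, near the middle of the members, and Bub3 (-0.34) was then the smallest. Incenp and Birc5 encode the scaffold and survivin, the partners of Aurkb in the passenger complex. Incenp fell from 24.3 to 15.2 RPKM and Birc5 from 42.0 to 23.2 RPKM. The 3 members of that complex thus lay at 55.2% (Birc5), 56.1% (Aurkb) and 62.7% (Incenp) of wild type.

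In the spindle checkpoint group all 5 genes fell, with a median log2 ratio of -0.63. Bub1b, which encodes the checkpoint protein BubR1, fell from 38.8 to 23.5 RPKM (authors' deposited table, adjusted p 0.0036). The kinase gene Bub1 fell from 21.4 to 14.0 RPKM, and Ttk, the kinase that starts checkpoint signalling, fell from 19.2 to 12.2 RPKM. Mad2l1, whose product binds and restrains Cdc20, fell from 47.8 to 30.1 RPKM. Bub3, a platform protein for Bub1 and BubR1 with the highest level in this group, fell from 67.0 to 52.9 RPKM (CVs of 0.06 and 0.02), a log2 ratio of -0.34 ± 0.05 (authors' deposited table, adjusted p 0.0203). The other 4 genes had log2 ratios between -0.71 and -0.60.

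All 12 kinetochore and centromere genes fell, with a median log2 ratio of -0.58. Cenpa, the histone variant that marks centromeres, had the largest fall of the group, from 37.5 to 21.4 RPKM (CVs of 0.09 and 0.11), a log2 ratio of -0.79 ± 0.10 (authors' deposited table, adjusted p 0.0072). The inner kinetochore genes Cenph (12.97 to 8.96 RPKM), Cenpi (13.2 to 8.18 RPKM), Cenpk (12.6 to 8.02 RPKM), Cenpm (10.6 to 7.51 RPKM) and Cenpn (14.2 to 9.23 RPKM) were expressed lower than Cenpa per transcript length. Their log2 ratios ran from -0.66 for Cenpi to -0.47 for Cenpm. Cenpe, a kinesin of chromosome alignment, fell from 17.1 to 11.8 RPKM, and Cenpf, a large outer kinetochore protein, from 23.8 to 15.9 RPKM. Of the 4 genes of the Ndc80 complex, which holds the microtubule end, Ndc80 fell from 23.5 to 15.9 RPKM and Nuf2 from 21.6 to 12.7 RPKM. Spc25 fell from 40.4 to 24.2 RPKM. Spc24, the binding partner of Spc25 in that complex, fell from 62.9 to 48.1 RPKM. Its log2 ratio of -0.38 ± 0.07 was the smallest of the kinetochore group, while that of Spc25 was -0.73 ± 0.06. The difference between these subunits of 1 complex was not tested.

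Among the 9 kinesins, which all fell with a median log2 ratio of -0.76, Kif22 changed most. Kif22, a chromosome arm motor, fell from 24.9 to 12.7 RPKM (CVs of 0.04 and 0.10), a log2 ratio of -0.94 ± 0.07 (authors' deposited table, adjusted p 0.0027). Kif4, a chromosome-bound motor of the midzone, fell from 19.2 to 10.5 RPKM. Kif11, the motor that pushes spindle poles apart, fell from 42.3 to 23.7 RPKM, and Kif15, which shares that task, from 14.7 to 8.25 RPKM. These 3 genes had log2 ratios of -0.83, -0.82 and -0.79. Kif23, the motor subunit of centralspindlin, fell from 34.1 to 19.98 RPKM, and Kif2c, which disassembles microtubule ends, from 28.4 to 17.1 RPKM. The smaller changes were those of Kif18a, a regulator of chromosome oscillation (13.6 to 9.24 RPKM), Kif20a, a midzone motor (46.2 to 32.3 RPKM), and Kif14, a motor of late cytokinesis (3.6 to 2.38 RPKM). Their log2 ratios lay between -0.54 and -0.51.

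The spindle assembly factors and the cytokinesis genes fell without exception, 4 of 4 in each group. Nusap1, which bundles microtubules around chromosomes, fell from 28.9 to 16.5 RPKM, and Tpx2, the activator of Aurka, from 30.8 to 19.7 RPKM (authors' deposited table, adjusted p 0.0023). Hmmr fell from 19.5 to 12.6 RPKM and Aspm, a spindle pole protein, from 15.5 to 9.43 RPKM. Of the cytokinesis genes, Prc1, which crosslinks midzone microtubules, fell from 62.9 to 36.5 RPKM. Ect2, the exchange factor that activates RhoA at the division plane, fell from 23.4 to 13.4 RPKM, and the scaffold gene Anln fell from 26.2 to 18.1 RPKM. Racgap1, the partner of Kif23 in centralspindlin, fell from 51.97 to 39.6 RPKM. Racgap1 had a log2 ratio of -0.39 ± 0.06, while its partner Kif23 had -0.76 ± 0.07; this difference between genes was not tested.

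The APC/C group held the largest fall of all members (Ube2c) and a much smaller one (Fzr1). Ube2c, the ubiquitin-conjugating enzyme that works with the APC/C, fell from 66.3 to 30.1 RPKM (CVs of 0.05 and 0.12), a log2 ratio of -1.13 ± 0.09 (authors' deposited table, adjusted p 0.0025). It was the member with the largest change, 2.20-fold. Cdc20, the APC/C activator of metaphase, fell from 59.4 to 36.2 RPKM, and Espl1, the separase that cuts cohesin, from 10.7 to 7.36 RPKM. Fzr1, which encodes the activator Cdh1 of late mitosis and G1, fell from 21.5 to 16.1 RPKM (CVs of 0.05 and 0.03), a log2 ratio of -0.40 ± 0.04 (authors' deposited table, adjusted p 0.0114).

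Top2a, the topoisomerase that untangles chromosomes, was the member of the highest level and fell from 119 to 71.4 RPKM, a log2 ratio of -0.73 ± 0.06. The condensin subunits fell with it. Ncaph fell from 32.5 to 18.2 RPKM, Ncapg from 25.96 to 15.2 RPKM and Ncapd2 from 47.5 to 29.7 RPKM, all of them specific to condensin I. Smc2 and Smc4, the ATPase core shared by both condensins, fell as well, Smc2 from 32.8 to 21.7 and Smc4 from 60.1 to 43.9 RPKM. The log2 ratios of the condensin I subunits (-0.82 to -0.67) did not overlap those of the shared subunits (-0.58 and -0.45), and the difference was not tested.

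The Haus genes encode subunits of augmin, which branches new microtubules off old ones inside the spindle. Haus4 fell from 25.5 to 18.9 RPKM, Haus6 from 13.2 to 10.03 RPKM and Haus8 from 16.6 to 11.3 RPKM. Haus1 was at 28.1 RPKM (CV 0.12) and 21.9 RPKM (CV 0.07) and did not pass (authors' deposited table, adjusted p 0.0719), with a log2 ratio of -0.36 ± 0.10. The limma test, which borrows spread from other genes, called Haus1 lower at an adjusted p of 0.0053. The median log2 ratio of the group was -0.40, the smallest of the 12 roles. The transcription factor genes Foxm1 and Mybl2, whose products drive late cell cycle genes, both fell, Foxm1 from 13.3 to 7.97 and Mybl2 from 9.43 to 5.86 RPKM. Their log2 ratios of -0.71 and -0.64 lay in the middle of the members.

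**Figure D3:**
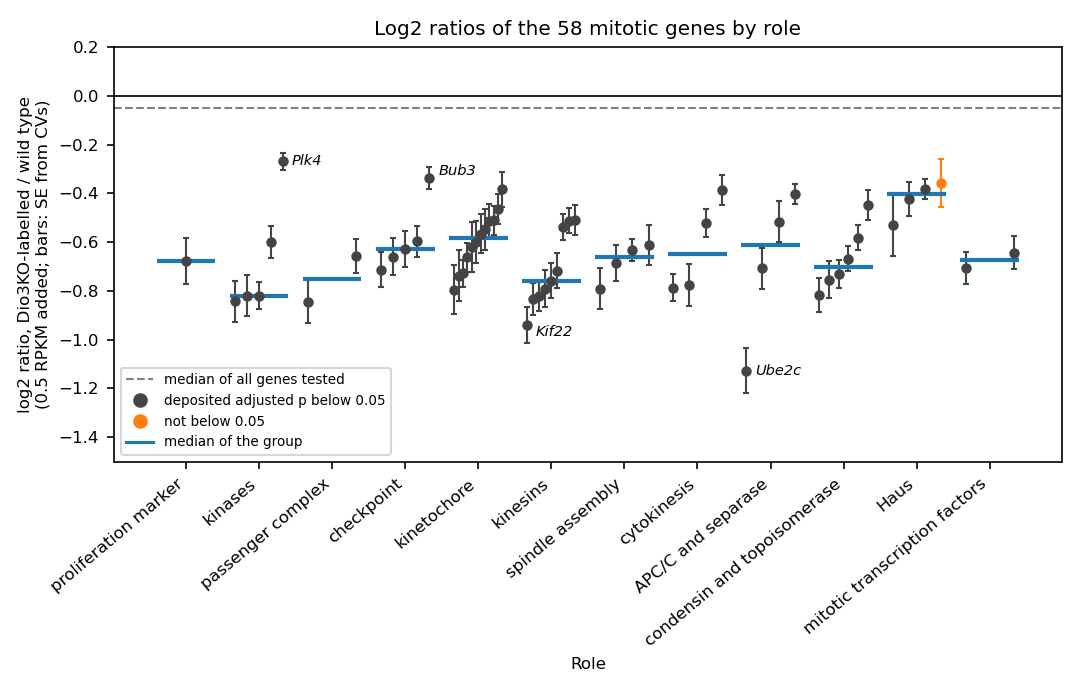
Points are the log2 ratios of the 58 members by role with the SE from the CVs, blue lines the median of each role and the dashed line the median of all tested genes (-0.05). Ube2c stands lowest at -1.13 and Plk4 highest at -0.27 (-0.56 over its summed transcripts), and Haus1 (orange) is the point with an adjusted p not below 0.05.

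The log2 ratios of the members were spread more widely than the SE of a single ratio, which was not tested. That SE leaves out the choice of transcript. The SD of the 58 log2 ratios was 0.17, while the SE of a single ratio was 0.07 at the median and 0.13 at most. Ratios did not follow level closely, with a Spearman correlation of -0.16 between mean level and log2 ratio (58 genes, which share the same libraries). Of 90 further transcripts with a mean of at least 1 RPKM, 90 had a lower mean and 88 fell, although transcripts of a gene share exons and are not independent. Over all tested genes, 57.9% had a lower mean and 15.9% fell, while the shares over all transcripts were not computed. A total of 35 members share neither exons nor a stretch of at least 200 bases at 95% identity with another gene of GENCODE M21. All 35 fell, against 15.9% of all tested genes. Of the other 23, 15 overlap exons on the opposite strand, and it is not stated whether reads were counted by strand. Ube2c, Kif22 and Haus1 are among those 15. The 58 genes lie on 18 chromosomes.

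The CVs of the members also differed between the groups, which was not tested. The CV was higher in the Dio3KO-labelled group for 43 members, equal for 4 and lower for 11, with medians of 0.08 and 0.05 in Dio3KO-labelled and wild type. Over all tested genes the CV was higher in the Dio3KO-labelled group for 32.0%, with medians of 0.06 and 0.08. Of 1865 other genes that fell and had levels in the members' range, 49% had the higher CV in the Dio3KO-labelled group. Those genes were picked by a p that itself depends on the CVs, so they are not a neutral comparison. Without that pick, it was 31.1% of the 11715 genes within the members' range of level. The share was 61.2% in the 85 genes of the wider mitotic list (medians of 0.07 and 0.05 in Dio3KO-labelled and wild type) and 47.7% in 44 DNA replication genes, and these shares were not compared by a test. The widest contrasts were Cenpk (CV 0.01 in wild type and 0.15 in Dio3KO-labelled), Nusap1 (0.01 and 0.12) and Kif15 (0.02 and 0.11). Mki67 and Haus1 went the other way. In absolute terms the SD was larger in the Dio3KO-labelled group for 29 of 58 members, while the mean was lower there for all 58. The members were measured in the same 8 samples and cannot be counted as separate evidence.

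**Figure D4:**
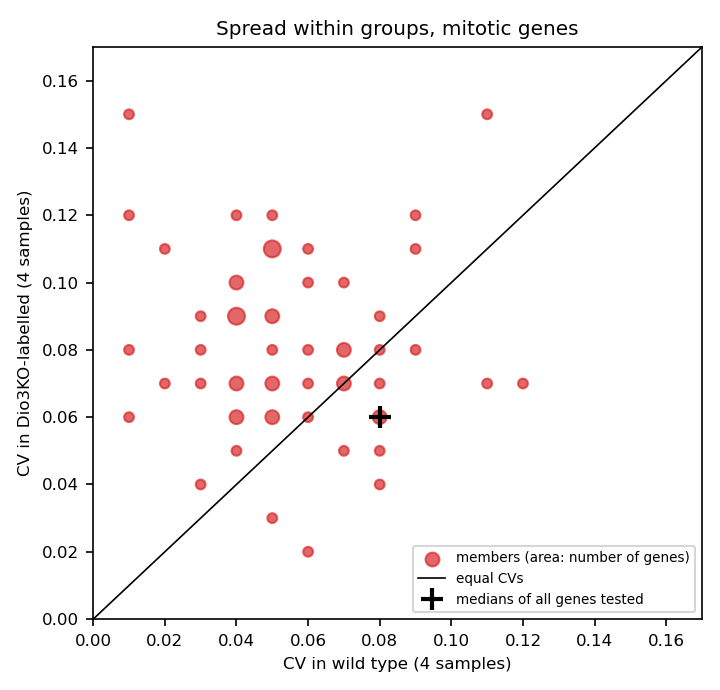
Each circle gives the CV of members in wild type (x axis) and Dio3KO-labelled testes (y axis), its area the number of genes at that pair of printed values, and the cross marks the medians of all tested genes (0.08 and 0.06). Of the members, 43 lie above the line of equal CVs and 11 below it.

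Other genes of the same machinery were taken from a list of 85 genes chosen for function. This list, like the members and the other lists, was drawn up with earlier results of these data known. Of these, 68 fell and 0 rose, while 17 missed the threshold, beside 15.9% of all tested genes that fell and 14.0% that rose. Their median log2 ratio was -0.44. By smallest adjusted p in the authors' deposited table they were led by the kinesin Kif18b (14.2 to 8.03 RPKM, 0.0022), the augmin subunit Haus5 (13.9 to 7.88 RPKM, 0.0023), the kinetochore gene Zwilch (14.7 to 9.64 RPKM, 0.0029) and Cdca3, a mitotic entry factor (40.98 to 24.7 RPKM, 0.003). Those of the highest level that did not pass were Zwint (72.2 and 64.5 RPKM), the APC/C subunit Cdc16 (59.0 and 55.7 RPKM), the centromere protein gene Cenpb (56.8 and 56.5 RPKM) and Haus7 (55.5 and 56.8 RPKM). By complex, a grouping made after the values were seen, the core subunits of the APC/C stood apart from Ube2c and Cdc20 in size. Of 12 core subunits, 3 fell and 9 did not pass, beside the 15.9% of all tested genes that fell. Their log2 ratios ran from -0.28 to -0.0027 with a median of -0.11, and those that fell were Anapc5, Anapc11 and Cdc26. Of 5 cohesin subunits Smc3, Rad21 and Stag1 fell, and the median was -0.13. All 5 genes of the Mis12 complex and Knl1 fell (median -0.57), as did all 3 of the Ska complex (median -0.67). Condensin II subunits fell less far than those of condensin I, with a median of -0.30 over 3 genes, which was not tested. In the full set of 8 augmin genes, 6 fell and 2 did not pass, with log2 ratios from -0.78 for Haus5 to 0.03 for Haus7.

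Genes of neighbouring steps of the cell cycle were lower too. Of 44 genes of the DNA replication machinery, 37 fell and 0 rose, with a median log2 ratio of -0.50. Over all tested genes, 15.9% fell and 14.0% rose. Among 10 genes for cyclins and Cdk1, 8 fell and 1, the G1 cyclin gene Ccnd1, rose (9.29 to 10.97 RPKM; named after its value was seen), with a median of -0.49. The highest replication genes were the sliding clamp Pcna (162 to 108 RPKM) and the helicase subunit Mcm6 (102 to 67.6 RPKM), and the highest cyclins were Ccna2 (80.8 to 48.3 RPKM) and Ccnb1 (70.2 to 46.0 RPKM), all of which fell. The medians of these lists lay nearer to 0 than the members' median of -0.65, and the difference between lists was not tested.

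**Figure D5:**
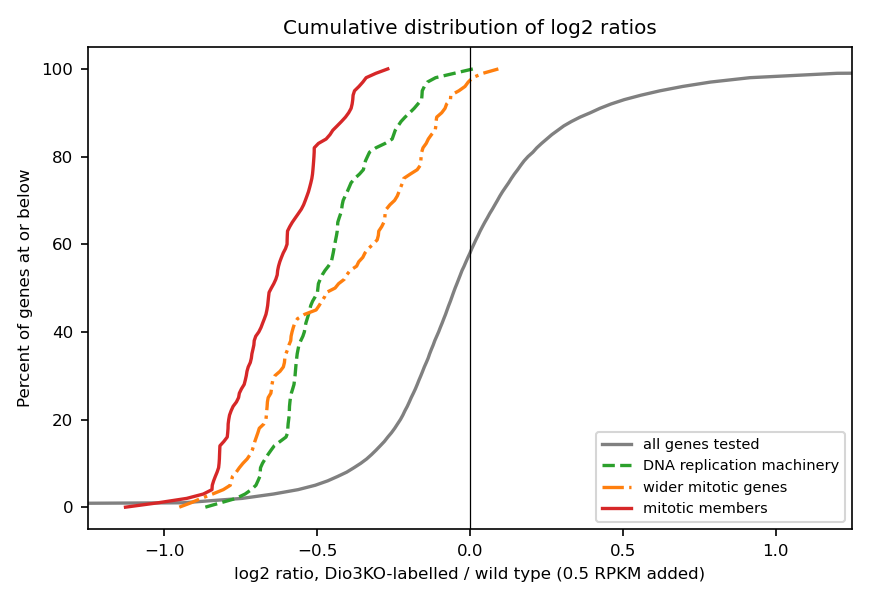
Lines give the percent of genes at or below each log2 ratio for all 15218 tested genes, 44 DNA replication genes, 85 further mitotic genes and the 58 members. The line of the members lies wholly left of 0, from -1.13 to -0.27, while the line of all tested genes crosses the middle at -0.05.

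Markers of cell types moved in different ways beside the members. The counts for them stand beside 15.9% of all tested genes that fell and 14.0% that rose. The summed mean of 13 Sertoli cell markers was 2386 (wild type) and 2429.9 RPKM (Dio3KO-labelled), and 5 fell, 2 rose and 6 did not pass. This sum adds large changes in opposite directions, such as Amh (284 to 127 RPKM) and Cldn11 (83.6 to 299.9 RPKM). Similar sums therefore do not mean that the markers were unchanged. Sox9, the defining Sertoli cell factor, did not pass, at 12.1 and 13.4 RPKM. Amh, a product of immature Sertoli cells, fell, and so did Fshr, Gata4, Dhh and Nr5a1, while Cldn11, a tight junction gene, rose from 83.6 to 299.9 RPKM and Wt1 rose from 59.98 to 67.1 RPKM (all but Amh and Sox9 named after their values were seen). Of 13 germ cell markers Ret fell and 12 did not pass, and the sum was 444 and 413 RPKM. Ddx4 did not pass, and Dazl was at 89.7 RPKM in both groups. Of 7 meiotic prophase markers 0 passed, with sums of 44.4 and 53.2 RPKM.

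Macrophage markers rose for 8 of 10 genes, against 14.0% of all tested genes, from a sum of 86.5 to 173 RPKM, with Adgre1 at 2.84 and 6.5 RPKM. Of 7 endothelial markers 3 rose (sums of 61.7 and 75.7 RPKM), and of 6 Leydig cell markers 2 rose (390 and 574 RPKM). Of 5 peritubular myoid markers 1 fell and 2 rose (574 and 527 RPKM), and of 3 erythroid markers 0 passed (1196 and 1036 RPKM). The myoid marker that fell was Acta2, the highest of that list (401 and 346 RPKM). Of 12 hypothalamic and neuronal markers 3 reached 1 RPKM, and 2 of these fell (4.8 and 2.6 RPKM summed over the 3). Each of these markers had a mean above 0 in both groups, though some hypothalamic ones lay near the floor. Oxt, named after its value was seen, was at 0.06 and 0.03 RPKM in wild type and Dio3KO-labelled. The part of cell numbers in the lower levels of the mitotic genes was not tested.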

How the data were processed

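Whole-testis RNA of 4 wild-type and 4 Dio3KO-labelled mouse samples was sequenced. The authors deposited mean RPKM per group (reads corrected for transcript length and depth) with the coefficient of variation (CV, the SD divided by the mean) of each group, per the file headers. An adjusted p-value for the 2 groups stands beside them, as the authors deposited it. The submitters' processing notes name FastQC, Novoalign 2.08 and the mm10 genome. How reads were counted, on which annotation and strand, and which test gave the p-values: not given in the sources used here. In all, the table had 147417 lines, each transcript stood 3 times, and 49139 transcripts remained once repeats were dropped. Older symbols were merged with RefSeq (GRCm38.p6) names, 3946 of 24582 symbols were not matched, and the transcript with the highest average of both means stood for each of 23753 genes. A gene was tested where a group mean reached 1 RPKM (15218 genes).

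Log2 ratios had 0.5 RPKM added to each mean, which understates the change of low genes, and their SE came from the CVs by the delta method. A gene was called when the deposited adjusted p was below 0.05. As an alternative, variances from the CVs were shrunken across genes with limma 3.58.1 (squeezeVar, with 6 degrees of freedom, R 4.3.3). The p-values were adjusted by Benjamini-Hochberg. The code was also run on simulated independent genes, few of them changed, a setting unlike these data that does not check the calls. A CV printed as 0 was set to 0.0025. Depth per sample is unknown. Other alternatives changed the threshold, filter, pseudocount, transcript and scaling. The members and lists were chosen with earlier results of these data known. Every member could be named; from the wider mitotic list the 4 genes with the smallest p, the 4 uncalled genes of the highest level and any that rose; from the other lists the 2 genes of the highest level and fixed defining markers. Other genes are said to have been chosen after their values were seen.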

Additional observations from a re-analysis of the deposited data

How the results depend on the processing

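No paired analysis was possible because the table holds group means and no values of single samples, and leaving out each replicate could not be run for the same reason. Of the 58 members, 57 fell with the deposited p, and between 45 and 58 were lower under the alternatives (limma, 58; a threshold of 0.01, 45; at least 5 RPKM, 56 of 57), also with limma after centring or division by summed RPKM (58 and 58). Their median log2 ratio stayed between -0.67 and -0.55, and no member changed direction. Plk4 was the one member whose log2 ratio moved by over 1.5 times, from -0.27 to -0.62 (smallest-p transcript), -0.56 (summed transcripts) and -0.17 (division by summed RPKM). At a threshold of 0.01 the wider mitotic genes that fell went from 68 to 44 and the cyclins and Cdk1 from 8 to 4, because the rule is stricter. Over all tested genes, the counts lower and higher were 2420 and 2126 with the deposited p, 752 and 654 at 0.01, 3527 and 2836 with limma, 2559 and 3517 after centring, and 1865 and 4374 after division by summed RPKM. With only the 250 bases before the start searched, members with a CHR went from 33 to 19 and those with both elements from 29 to 17, since the window is shorter. The alternatives for the wider, cyclin and replication lists, the promoter window, the range a sample can take and the members without shared sequence were chosen after the data were seen. The number of reads behind each value is unknown, so counting error could not be given, and 4 samples a group limit the precision.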
